A study of Mus musculus with 8 samples.

Results

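The cytokine and chemokine array held 7 genes whose products are best known from T cells, and these were read in livers that have no T cells. The genes were Il2, Il21 and Il9, Il3 and Csf2, and Cd40lg and Cd70. They were chosen by symbol, with earlier results of these data already known, and they make up 7 of the 84 array genes. All mice lacked Rag1, which developing T and B cells need to rearrange their receptor genes. Rag1-/- mice were compared with Rag1-Tbet DKO mice, which in addition lack T-bet (Tbx21), the transcription factor on which type 1 innate lymphoid cells (ILC1s) depend. Mice were 17 to 19 weeks old after at least 12 weeks on standard chow (ND) or on a high-fat diet made with lard (HFD). Each genotype and diet was sampled without injury (non-IRI) or after partial warm ischemia-reperfusion injury (IRI) with 45 minutes of ischemia and 24 hours of reperfusion. The 8 conditions were represented by 1 pool of RNA each, from at least 3 livers, and every gene was read in 1 well per pool. The methods describe collection of the left lobe from injured mice and of the entire organ from controls, so that lobe and injury cannot be told apart. No condition was replicated, and each difference given here is one between 2 pools. Any test across the 8 pools would have to treat different diets and genotypes as replicates, and 4 pairs cannot give an exact two-sided p below 0.125.

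Cytokines of this set share receptor subunits. IL-2, IL-9 and IL-21 signal through the common gamma chain, IL-3 and GM-CSF (the product of Csf2) through the beta common chain, and CD40L and CD70 are membrane-bound ligands of the tumor necrosis factor (TNF) superfamily. In T cells several of these genes are switched on after receptor engagement through calcium, calcineurin and NFAT, but most of them are not made by T cells alone. GM-CSF is also made by innate lymphoid cells, endothelium and fibroblasts, IL-9 by type 2 innate lymphoid cells and mast cells, IL-3 by mast cells and basophils, CD40L by activated platelets, and CD70 by B cells and dendritic cells. In a bulk liver sample, fewer cells of a type and less RNA per cell cannot be told apart.

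Il2 and Il21, and likewise Csf2 and Il3, are neighbours in the mouse genome, and the sequences before 4 genes are shown because the results turn on them. In GRCm38.p6, Il2 (chr3:37120713-37125954) lies 96.8 kb from Il21 (chr3:37222759-37232636), and Csf2 (chr11:54247270-54249899) lies 15.2 kb from Il3 (chr11:54265085-54267279). Il9 lies at chr13:56479277-56482257, Cd40lg at chrX:57212143-57224042 and Cd70 at chr17:57145997-57149777. A RefSeq sequence of the 250 bases before the gene start was matched for 5 of the 7 genes. Each is given 5′ to 3′ on the strand of the gene, all 4 on the minus strand, with every match to the NFAT core GGAAA, on either strand (TTTCC on the other), in capitals.
Il2 (chr3:37125955-37126204): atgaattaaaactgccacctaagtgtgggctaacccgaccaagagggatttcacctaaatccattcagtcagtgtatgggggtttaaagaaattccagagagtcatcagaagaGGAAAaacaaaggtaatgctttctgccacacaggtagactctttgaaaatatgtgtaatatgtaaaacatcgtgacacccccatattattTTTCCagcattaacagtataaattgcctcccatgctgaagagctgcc
Il9 (chr13:56482258-56482507): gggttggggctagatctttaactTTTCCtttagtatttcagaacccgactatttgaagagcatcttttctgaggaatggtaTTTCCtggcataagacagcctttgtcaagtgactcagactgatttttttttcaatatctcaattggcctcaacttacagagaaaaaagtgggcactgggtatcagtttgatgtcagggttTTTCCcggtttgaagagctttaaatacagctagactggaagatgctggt
Csf2 (chr11:54249900-54250149): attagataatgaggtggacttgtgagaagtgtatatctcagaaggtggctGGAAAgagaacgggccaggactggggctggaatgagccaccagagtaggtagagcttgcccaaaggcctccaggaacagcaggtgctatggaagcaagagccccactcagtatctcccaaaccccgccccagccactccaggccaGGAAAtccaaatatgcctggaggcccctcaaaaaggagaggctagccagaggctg
Il3 (chr11:54267280-54267529): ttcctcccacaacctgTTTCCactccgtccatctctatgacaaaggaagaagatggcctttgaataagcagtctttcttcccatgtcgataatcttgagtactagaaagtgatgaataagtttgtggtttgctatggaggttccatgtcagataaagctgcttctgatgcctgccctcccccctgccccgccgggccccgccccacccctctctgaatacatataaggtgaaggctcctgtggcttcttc
The window held 2 matches before Il2, 3 before Il9, 2 before Csf2 and 1 before Il3, and 3 before Il21. The motif is short and common, and 55.6% of 27018 mouse promoter windows of this length held it, as did 45 of the 62 array genes with a window (72.6%). A TATA box (TATAAA, on either strand) was found before Il2 (1 match) and before none of the other 4, and 13.0% of all windows and 22 of the 62 of array genes (35.5%) held one. These matches describe the letters and carry no evidence of binding in liver.

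Expression was read as the threshold cycle (Ct), at which a PCR product is detected, and a Ct lower by 1 cycle stands for about a 2-fold higher level. The highest Ct deposited is 35, and a well at 35 was taken as at the limit of detection. Levels are given as -ΔCt, the negative difference in Ct from the mean of Actb and Hsp90ab1, on a log2 scale. That reference Ct lay between 15.04 and 16.46 over the pools, so a well at the limit stands for a level below a bound of -19.96 to -18.54. The standard deviation of the log2 values of 5 housekeeping genes ran from 0.113 to 0.576 over the 12 comparisons and is the only yardstick of spread. It is a spread between genes, and 2 of the 5 are the references, whose log2 values are equal and opposite by construction. The 5 genes lay at Ct 12.36 to 21.21, so it does not measure the error of single wells near the limit. The array genes Hc, Thpo and Gpi1, listed for hepatocytes but not all particular to them, were below the limit in all pools, at Ct 14.78 to 22.42. The array holds no row for Rag1, Tbx21 or a CD3 or T cell receptor gene, so neither the genotypes nor the absence of T cells could be checked on it.

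Most of the 7 genes were at or near the limit in these livers. Of their 56 wells, 27 were at the limit (48.2%), against 52 of the 616 wells of the other 77 array genes (8.44%). Il2 was below the limit in 6 of 8 pools, Cd40lg in 3, Cd70 in 2, and Il21 and Il3 in 1 each, while Il9 and Csf2 were read in all 8. The limit was reached in 5 or more pools by 4 of the 7 genes and by 5 of the other 77 (Adipoq, Il17a, Il22, Il24 and Mstn). In the opposite direction, 2 wells of the set had a Ct below that of Actb in the same pool, and none of the 616 other wells did. Both were in the ND Rag1-Tbet DKO non-IRI pool, and they are described with Il3 and Cd40lg.

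**Figure D1:**
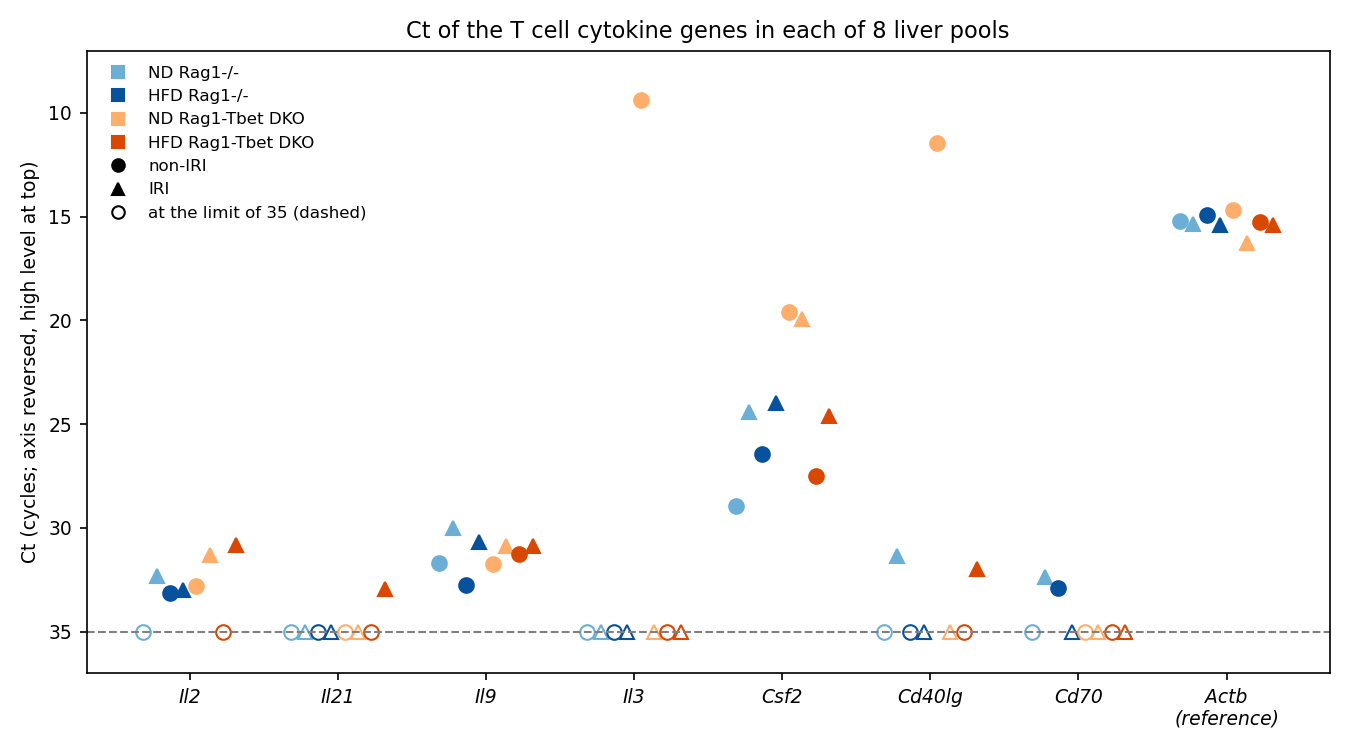
Ct (cycles, axis reversed) of each of the 7 genes and of Actb in the 8 pools, 1 point per pool; circles are non-IRI and triangles IRI pools, colours give diet and genotype, and open symbols lie at the limit of 35. Csf2 and Il9 were read in every pool, whereas the single low points of Il3 (9.36) and Cd40lg (11.44) lie above all Actb points.

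Il2, the main growth factor of activated T cells and the signal that also expands NK cells and regulatory T cells, was low but readable. In Rag1-/- liver its Ct was 35 without injury and 32.33 after IRI on ND, and 33.16 and 33.01 on HFD. In Rag1-Tbet DKO liver its Ct was 32.78 and 31.32 on ND, and 35 and 30.81 on HFD. The level of Il2 was highest after IRI in the Rag1-Tbet DKO pools, at -14.86 on ND and -15.15 on HFD, followed by the Rag1-/- IRI pools at -16.52 and -17.11. All 4 IRI pools lay above all 4 non-IRI pools, whose readable levels were -17.74 and -17.94. Such a separation was found for 6 of 83 array genes (7.23%), and for Il2 it was lost with raw Ct values or a limit of 32.

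Il21, a cytokine of follicular helper T cells and NKT cells that acts on B, T and NK cells, was at the limit in 7 pools. It was read at Ct 32.94 in the HFD Rag1-Tbet DKO IRI pool, where Il2 had its lowest Ct. By level, Il2 was highest in the ND Rag1-Tbet DKO IRI pool (-14.86 against -15.15), in which Il21 was at the limit. In the HFD Rag1-Tbet DKO IRI pool Il21 was 2.06 cycles from the limit. Between pools with the same reference Ct, no fall larger than 4.17-fold could have been seen.

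Il9, a growth factor of mast cells, was read in all 8 pools, with levels that spanned 3.32 on the log2 scale. Its Ct in Rag1-/- liver was 31.69 without injury and 30.01 after IRI on ND, and 32.74 and 30.70 on HFD. In Rag1-Tbet DKO liver its Ct was 31.72 and 30.86 on ND, and 31.26 and 30.89 on HFD. As levels, the 4 IRI pools lay between -15.23 and -14.20 and the 4 non-IRI pools between -17.52 and -15.76, with no overlap. Such a separation was found for 6 of 83 array genes (7.23%). For Il9 it was lost against the median Ct of the array genes read in all pools. The neighbouring IRI levels of ND Rag1-/- (-14.20) and ND Rag1-Tbet DKO liver (-14.40) differed by 0.20. The housekeeping spread of that comparison was 0.313, which does not measure the error of wells as late as these.

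**Figure D2:**
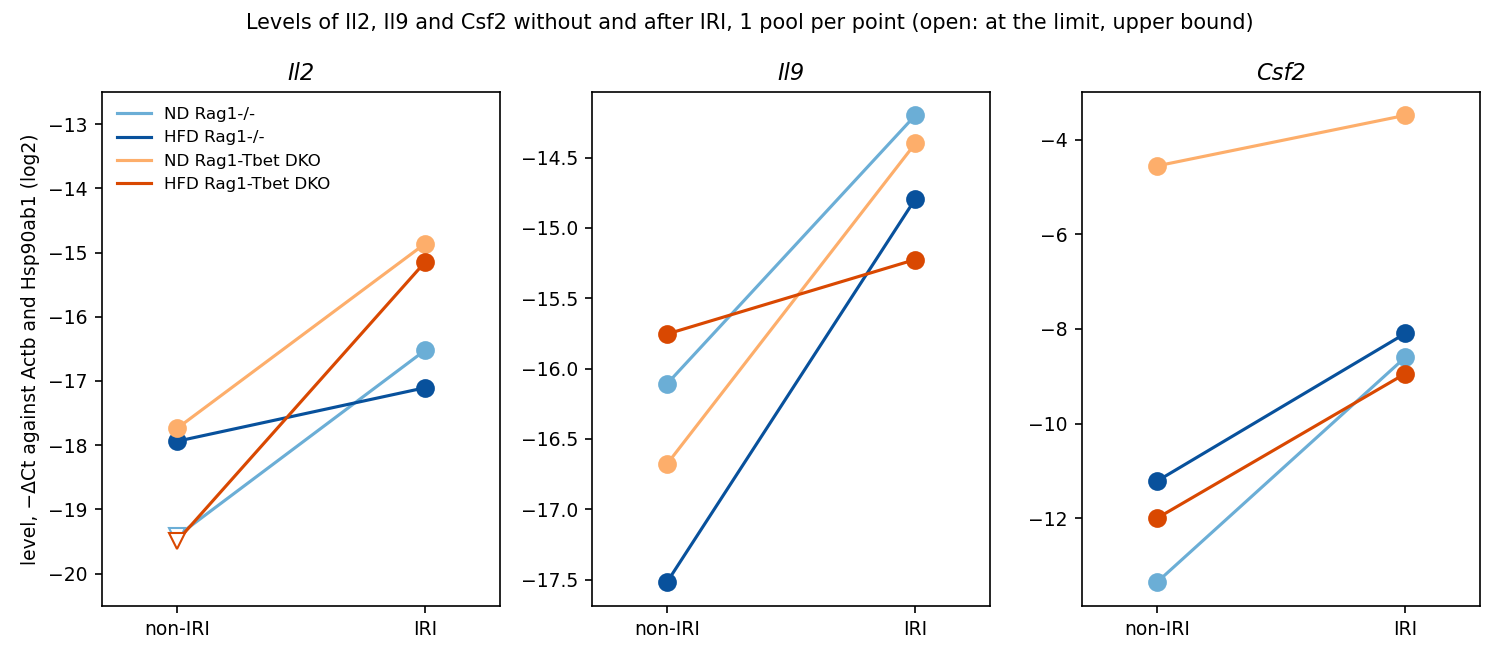
Levels (-ΔCt against Actb and Hsp90ab1, log2) of Il2, Il9 and Csf2 without injury and after IRI, 1 pool per point, with lines joining pools of the same diet and genotype and a separate axis range for each gene; open triangles are upper bounds for wells at the limit. All 12 lines rise, and both Csf2 points of ND Rag1-Tbet DKO liver (-4.55 and -3.48) lie above the other 6.

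Csf2 had the lowest Ct of the set in every pool but one, the pool of the 2 isolated wells, and it varied more than Il9. GM-CSF drives the production and activation of granulocytes and macrophages. In Rag1-/- liver its Ct was 28.94 without injury and 24.41 after IRI on ND, and 26.44 and 24 on HFD. In HFD Rag1-Tbet DKO liver its Ct was 27.51 and 24.61, close to the Rag1-/- values. The ND Rag1-Tbet DKO pools stood apart at Ct 19.59 without injury and 19.94 after IRI. There Csf2 ranked 15th and 11th from the lowest Ct among 89 genes, against a rank between 31 and 54 in the other 6 pools. Its level spanned 9.88 on the log2 scale over the 8 pools, against 3.32 for Il9.

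Il3, which promotes the growth of mast cells, basophils and early myeloid progenitors, was at the limit in 7 pools and read Ct 9.36 in the ND Rag1-Tbet DKO non-IRI pool. That is 5.33 cycles below Actb and the lowest Ct of the whole table. Cd40lg, whose product activates B cells and macrophages through CD40, read Ct 11.44 in the same pool, 3.25 cycles below Actb. Elsewhere Cd40lg was read at 31.37 in ND Rag1-/- IRI and at 31.96 in HFD Rag1-Tbet DKO IRI liver, and it was at the limit in the other 5 pools. The gap from the lowest to the next lowest Ct of a gene was 25.64 cycles for Il3 and 19.93 for Cd40lg, whereas the largest among the other array genes was 2.53 (Ccl7). Levels in that pool would be 5.68 for Il3 and 3.60 for Cd40lg, that is, above the mean of Actb and Hsp90ab1. Of the 7 wells that adjoin these 2 on the plate, 4 read within the range of the other pools and 3 outside it. The 3 were Osm (35, against 25.01 to 30.34) and Il17a (31.79, against 31.92 to 35) beside Il3, and Cxcl13 (20.77, against 21.54 to 24.82) beside Cd40lg. Whether the 2 wells report transcript was not tested.

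Cd70, the ligand of CD27 on T and NK cells, was read at Ct 32.37 in ND Rag1-/- IRI and 32.90 in HFD Rag1-/- non-IRI liver. In the other 2 Rag1-/- pools and in all 4 Rag1-Tbet DKO pools it was at the limit. Its readable wells lay 2.63 and 2.10 cycles from the limit.

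The first comparison asks how IRI changed these genes within each diet and genotype. Differences of 2-fold or more were counted. Where 1 of the 2 wells was at the limit the value is a bound, and where both were there is no value. In ND Rag1-/- liver, 5 of the 5 genes with a value were higher after IRI and none was lower, beside 50.7% of the array genes higher and 5.33% lower. Csf2 was 27.1-fold higher (log2 4.76) and Il9 3.76-fold higher, with bounds of at least 14.5-fold for Cd40lg, 7.46-fold for Il2 and 7.26-fold for Cd70. On HFD, 2 of the 4 genes with a value in Rag1-/- liver were higher and 1 was lower, where 10.4% of the array genes were higher and 15.6% lower. These were Csf2 (8.72-fold), Il9 (6.61-fold) and Cd70, which was at least 2.67-fold lower, whereas Il2 differed 1.78-fold.

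In ND Rag1-Tbet DKO liver, 3 of 5 genes were higher after IRI and 2 lower, beside 50% and 11.2% of the array. Il2 was 7.36-fold and Il9 4.86-fold higher. Csf2 was 2.10-fold higher (log2 1.07) against Actb and Hsp90ab1, but its raw Ct was 0.35 higher after IRI, and with the genes the methods name as references for this genotype its log2 value was -0.28. The 2 lower genes were Il3 and Cd40lg, with log2 values of -24.22 and -22.14 or lower, both set by the isolated wells. Without these wells none of the 3 remaining values was lower. In HFD Rag1-Tbet DKO liver, 4 of 5 genes were higher and none was lower, where 55.8% of the array was higher and 5.19% lower. Il2 was at least 20.4-fold, Cd40lg at least 9.19-fold and Il21 at least 4.66-fold higher, Csf2 was 8.34-fold higher, and Il9 differed 1.44-fold.

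Il2, Il9 and Csf2 thus had a higher level after IRI in 4 of 4 pairs, at 2-fold or more in 3, 3 and 4 of them. Over these 4 pairs, which differ in diet and genotype and are not replicates, the mean log2 value was 1.86 ± 0.948 (SD) for Il9 and 3.00 ± 1.51 for Csf2. An exact two-sided sign-flip test gave p = 0.125 for each, the smallest that 4 pairs can give. It was run after all 4 pairs were seen to rise, which fixes that p, so no conclusion is drawn from it. The direction of Il2 held with every reference tried, that of Csf2 in ND Rag1-Tbet DKO liver did not, and Il9 in HFD Rag1-Tbet DKO liver had a log2 value of 0.53 that became -0.78 against the array median. Over the 4 comparisons, 14 of 19 values of the set were higher (73.7%), beside 41.7% of all array values. Lower were 3 (15.8%), beside 9.39%, and without the wells below Actb, 1 was lower, of fewer values than 19. These shares are not alike, because a gene near the limit has a value only where at least 1 pool is high enough to read. Of the 28 comparisons of the set, 19 had a value, and every bound among them passed 2-fold. At the limit were 48.2% of the wells of the set, against 8.44% of those of the other array genes. The median log2 value of the set, bounds at their bound, was 2.90 on ND and 1.78 on HFD in Rag1-/- liver, beside array medians of 1.00 and -0.19, and 1.07 and 3.06 in Rag1-Tbet DKO liver, beside 0.98 and 1.18. Without the isolated wells of Il3 and Cd40lg, the ND Rag1-Tbet DKO median of the 3 remaining genes was 2.28. Il2 and Il9 were 2 of only 6 genes, of 83 with a readable well (7.23%), whose 4 IRI levels all lay above the 4 non-IRI levels. The others were Ccl20, Csf1, Il23a and Tnfsf11. The gap between the groups was 0.64 for Il2 and 0.53 for Il9, and this comparison was added after the values were seen. With the ND Rag1-Tbet DKO wells of Csf2 left out, its remaining IRI levels also lay above its remaining non-IRI levels. That choice was made after the values were seen and leaves fewer pools on each side. The share of 7.23% does not apply to it. The summed level of the platelet genes Pf4 and Ppbp (2 of 2 readable in all pools) was -9.63 to -7.54 without injury and -8.72 to -5.84 after IRI, and that of the macrophage genes Il1b, Tnf, Il10, Ccl3 and Ccl4 (5 of 5) was -6.74 to -5.77 and -7.18 to -4.25. For the genes listed for NK cells and ILC1s it was -8.04 to -5.36 without injury and -7.23 to -6.41 after IRI. For type 2 innate lymphoid cells (Il5, Il13 and Il9) it was -15.55 to -12.46 and -14.57 to -12.27. For type 3 cells (Il17a, Il17f and Il22) it was -12.14 to -11.16 and -13.44 to -9.03. The last 2 lists include wells at the limit. The part of any of these cells in the values of Cd40lg and Csf2 was not tested.

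**Figure D3:**
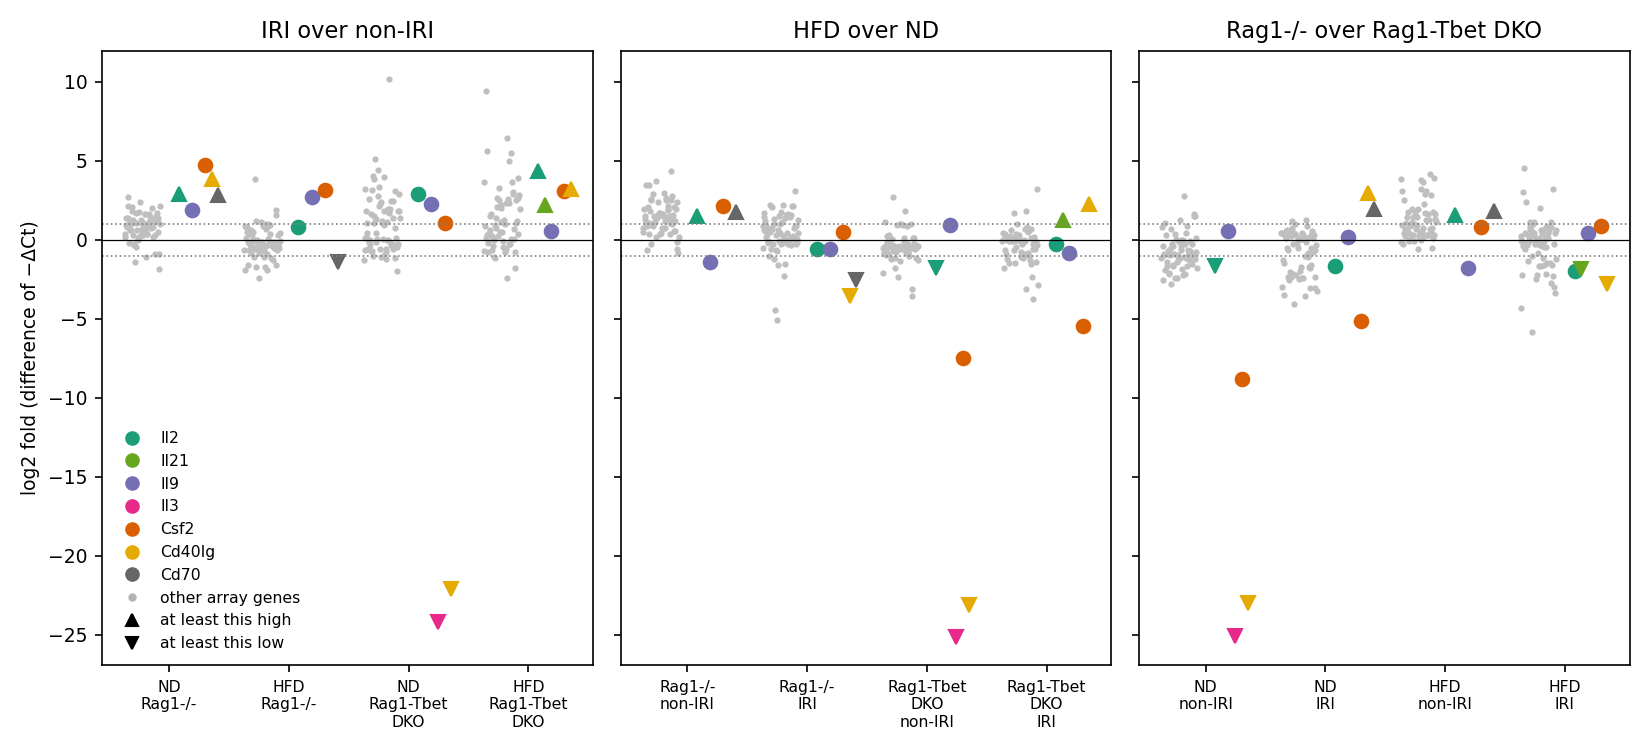
Log2 folds (difference of -ΔCt) of the 7 genes in the 12 comparisons, coloured by gene, with the other array genes that have a value in both pools as grey points; circles are measured folds, triangles are bounds from a well at the limit, and dotted lines mark 2-fold. The triangles below -20 are Il3 and Cd40lg in the ND Rag1-Tbet DKO non-IRI pool, and the 4 Csf2 circles at -5.12 to -8.81 come from the ND Rag1-Tbet DKO pools.

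The second comparison asks how HFD changed the genes within each genotype and injury state, and it uses the same 8 pools. In Rag1-/- liver without injury, 3 of 4 genes were higher on HFD and 1 was lower, beside 71.4% and 1.3% of the array. Csf2 was 4.41-fold, Cd70 at least 3.34-fold and Il2 at least 2.79-fold higher. Il9 was 2.66-fold lower and was the 1 array gene that passed 2-fold in that direction. Against the median Ct of the array genes read in all pools, the log2 value of Csf2 was 0.22 and the bounds of Il2 and Cd70 were -0.44 and -0.18, so that none of the 3 passed 2-fold. In Rag1-/- liver after IRI, none of 5 genes was higher on HFD and 2 were lower, where 28.6% of the array was higher and 11.7% lower. Cd40lg was at least 11.6-fold and Cd70 at least 5.80-fold lower, and Il2, Il9 and Csf2 lay within 2-fold (log2 -0.59, -0.60 and 0.51).

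In Rag1-Tbet DKO liver without injury, none of 5 genes was higher on HFD and 4 were lower, beside 6.33% and 29.1% of the array. Csf2 was 175-fold lower (log2 -7.46) and Il2 at least 3.38-fold lower. Il3 and Cd40lg had log2 values of -25.18 and -23.10 or lower from the isolated wells, without which 2 of 3 values were lower. Il9 was 1.90-fold higher. After IRI, 2 of 5 genes were higher on HFD and 1 was lower, beside 8.75% and 22.5% of the array. Cd40lg was at least 4.74-fold and Il21 at least 2.40-fold higher, and Csf2 was 44.2-fold lower. In all, 5 of 19 values were higher on HFD (26.3%, beside 28.4% of array values) and 8 were lower (42.1%, beside 16.3%). As for injury, the shares of the set and of the array are not alike, since genes near the limit often had no value. Without the isolated wells 6 were lower, and without the ND Rag1-Tbet DKO wells of Csf2 as well, 4, each of fewer values than 19.

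The third comparison asks how the genotypes differed, as Rag1-/- over Rag1-Tbet DKO. On ND without injury, none of 5 genes was higher in Rag1-/- liver and 4 were lower, beside 8.86% and 45.6% of the array. Csf2 was 449-fold lower (log2 -8.81) and Il2 at least 3.20-fold lower in Rag1-/- liver. Il3 and Cd40lg had log2 values of -25.10 and -23.02 or lower from the isolated wells, without which 2 of 3 values were lower. On ND after IRI, 2 of 5 were higher and 2 lower, beside 8.75% and 42.5%. Cd40lg was at least 7.89-fold and Cd70 at least 3.94-fold higher, while Csf2 was 34.8-fold and Il2 3.16-fold lower.

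On HFD without injury, 2 of 4 genes were higher in Rag1-/- liver and 1 was lower, where 54.5% of the array was higher and 1.3% lower. Cd70 was at least 3.52-fold and Il2 at least 2.94-fold higher, and Il9 was 3.40-fold lower. Against the array median the bounds of Cd70 and Il2 were 0.33 and 0.07, so that neither passed 2-fold. On HFD after IRI, none of 5 genes was higher and 3 were lower, beside 11.5% and 30.8%. Cd40lg was at least 6.96-fold, Il2 3.89-fold and Il21 at least 3.53-fold lower in Rag1-/- liver. Csf2 differed 1.72-fold and 1.80-fold between the genotypes on HFD, inside the 2-fold threshold in both injury states. Over the 4 comparisons 4 of 19 values were higher (21.1%, beside 20.7% of array values) and 10 were lower (52.6%, beside 30.3%). Here too the shares of the set and of the array are not alike, since genes near the limit often had no value. Without the isolated wells 8 were lower, and without the ND Rag1-Tbet DKO wells of Csf2 as well, 6, each of fewer values than 19. After IRI, Il2 was lower in Rag1-/- than in Rag1-Tbet DKO liver on both diets, although on ND its log2 value was -0.88 against the array median and no longer passed 2-fold.

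By the rank of their levels over the 8 pools, the array genes most like Il9 were Cxcl1 (Spearman rho 0.667) and Csf1 (0.619), and those most like Csf2 were Cx3cl1 (0.833), Spp1 (0.786) and, tied with it, Tnfrsf11b. These values describe 8 pools that share references, and the other 5 genes were read in too few pools to be ranked. Unlike Csf2, Cx3cl1 changed little, from -11.39 to -10.30, so that the likeness is one of order and not of size.

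Other genes of the same receptor groups were counted in the same way, and their counts are to be read beside the 41.7% of all array values that were higher after IRI and the 9.39% that were lower. Of the other common gamma chain cytokines (Il4, Il7 and Il15), 5 of 12 values were higher after IRI and none lower, among them Il4 with a 7.36-fold difference in HFD Rag1-Tbet DKO mice. The other beta common chain cytokine, Il5, the growth factor of eosinophils, was higher in 2 of 4 comparisons after IRI and lower in none. Its log2 value in ND Rag1-Tbet DKO liver was -0.44. Without injury, Il5 of Rag1-Tbet DKO mice was at least 117-fold lower with HFD, the comparison in which Csf2 was 175-fold lower. Among the 7 other TNF superfamily ligands, 13 of 28 values were higher after IRI and 1 was lower, and Tnfsf11 (RANKL) of ND Rag1-/- mice was at least 65.8-fold higher. For the 10 further cytokines that T cells share with innate lymphoid cells, 18 of 40 comparisons were higher after IRI and 3 lower. Another 7 were at the limit in both pools and have no value, and the 41.7% leaves such comparisons out.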

How the data were processed

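RNA from at least 3 livers per condition was pooled, and 1.25 µg was read on the PCR array in 40 cycles. The authors deposited Ct values (threshold cycles, none above 35), normalized values (a ratio, 2 to the power of -ΔCt) and folds of each pool against uninjured ND liver (their own comparison, not used here). Their normalized values rest on different reference genes in the 2 genotypes, Il9 among those of Rag1-Tbet DKO mice, so levels were recomputed from the Ct values against Actb and Hsp90ab1. Samples were grouped by their labels, and pools were compared by injury, diet and genotype at a 2-fold threshold. With 1 pool per condition no comparison of 2 pools has a test; an exact sign-flip test over the 4 IRI pairs of Il9 and Csf2 was added after seeing the data. Depth is limited by the Ct limit. The fold computation was tested on simulated data. Alternatives were other references, raw Ct values, a limit of 32, a 3-fold threshold and left-out wells; leaving out both Csf2 wells of ND Rag1-Tbet DKO liver, or the comparisons with its non-IRI pool, was chosen after seeing the data. The 7 genes and the 4 lists (common gamma chain, beta common chain, TNF superfamily, other T cell cytokines) were chosen with earlier results of these data known. Named genes were the 7, the housekeeping genes, the 2 genes most like each of the 7 that was read in at least 7 pools, and up to 2 genes with the largest log2 value per list and comparison. The 4 other genes with separated IRI levels, the neighbouring wells and the marker lists were chosen after their values were seen or for the wells they adjoin. All 7 genes matched RefSeq (GRCm38.p6). The computation ran in Python 3.11.15 with pandas 2.3.3, and figures were drawn with matplotlib 3.10.9.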

Additional observations from a re-analysis of the deposited data

Results flagged for a closer look

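The values of Csf2 by genotype had opposite signs on the 2 diets, although those on HFD lay within 2-fold. As Rag1-/- over Rag1-Tbet DKO, its log2 value was -8.81 without injury and -5.12 after IRI on ND, but 0.79 and 0.85 on HFD, so that the mean ND value minus the mean HFD value was -7.78. Against the array median, the HFD value without injury was -0.71, the sign of the ND values. The same 8 wells seen by diet gave log2 values of HFD over ND of 2.14 and 0.51 in Rag1-/- and of -7.46 and -5.47 in Rag1-Tbet DKO liver, a difference of 7.78. Both rest on the 2 ND Rag1-Tbet DKO wells at Ct 19.59 and 19.94. The difference was not tested, since each condition is 1 pool.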

How the results depend on the processing

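With the Ct limit at 32 in place of 35, the counts of higher values fell to 9 (injury), 1 (diet) and 0 (genotype). Those of lower values fell to 4 (diet) and 6 (genotype), and 1 gene had separated IRI levels (Il9). Part of this is lost values, since the wells of the set at the limit rose from 27 to 35. Of the 44 called values, 30 still had a value at that limit, and 22 kept their call. Array shares are not given for the settings of this section, so its counts cannot be set against the array. The number of values also falls where the limit is lowered or where wells or comparisons are left out. Against the array median, 3 values were higher on HFD and 1 gene had separated IRI levels (Il2), and with raw Ct values 1 did (Il9). At a 3-fold threshold, 3 were higher on HFD. Leaving out the wells below the Actb Ct left 1 lower value after IRI. Leaving out in addition both ND Rag1-Tbet DKO wells of Csf2 left 1 lower value by injury, 4 by diet and 6 by genotype, and leaving out the comparisons with the ND Rag1-Tbet DKO non-IRI pool gave the same 1, 4 and 6. Csf2 after IRI in ND Rag1-Tbet DKO liver turned to -0.35 with raw Ct values, -0.28 with the references the methods name and -0.21 in the deposited normalized values. The mean Ct of Actb and Hsp90ab1 was 15.04 without injury and 16.46 after IRI in these pools. That of Nodal, Il9 and Csf1, the references the methods name, was 26.66 and 26.73. The sign of Csf2 thus depends on the reference, and why the references moved unequally was not tested. Of 44 called values, 44 kept their call with Actb, Hsp90ab1 and Gapdh as references, 43 with all 5 housekeeping genes, 42 with raw Ct values and 33 with the array median. The 11 calls lost against the array median include every higher call of HFD over ND in Rag1-/- liver without injury. They also include every higher call of Rag1-/- over Rag1-Tbet DKO liver on HFD without injury. Another 3 were lower calls of Il2 (HFD over ND in uninjured Rag1-Tbet DKO liver, and Rag1-/- over Rag1-Tbet DKO on ND without injury and after IRI). The rest were higher calls after IRI. These were Il9 in ND Rag1-/- liver (log2 0.65), Csf2 in ND Rag1-Tbet DKO liver (0.555) and Il21 in HFD Rag1-Tbet DKO liver (bound 0.91). Readable Il2 wells lay 1.84 to 4.19 cycles from the limit. Between pools with the same reference Ct, no fall larger than 3.58-fold to 18.3-fold could have been seen.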
